A study of Mus musculus with 12 samples.

Results

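The transcripts of 9 receptors that steer leukocytes along chemical gradients were followed in mouse macrophages given interferon gamma (IFNγ), the cytokine that T cells and NK cells use to activate macrophages. They were chosen by gene symbol: the CC chemokine receptors Ccr1 and Ccr2, the atypical receptor Ccrl2, the CX3C receptor Cx3cr1, the CXC receptor Cxcr4, the complement anaphylatoxin receptors C3ar1 and C5ar1, and the formyl peptide receptors Fpr1 and Fpr2. Each symbol had 1 entry in the expression table, so the set is 9 of 46729 entries, and all 9 passed the filter on low values that kept 11580. Fpr2 shares its entry with Fpr3, so values of that entry are given for both together.

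The cells were bone-marrow-derived macrophages of C57BL6 mice, grown over 10 days with interleukin-3 at the start and with medium conditioned by L-929 cells as a source of CSF-1, which the untreated cells received too. Of the 4 groups 1 was left untreated and the others had IFNγ in fresh medium for 8 h, at 0.2 (low), 2 (middle) or 20 U/ml (high), and each group had 3 libraries. The label of the highest dose gives units without a volume and was read like the others. The labels do not say whether the libraries came from separate animals or cultures. The deposited values are 1 FPKM (fragments scaled to transcript length and sequencing depth) per entry and group, so no difference has a replicate check and none could be tested, and the depth behind each value is unknown.

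Most of these receptors are seven-transmembrane proteins that signal through heterotrimeric G proteins of the Gi class. Binding of a ligand releases the beta-gamma subunits, which activate phosphoinositide 3-kinase gamma and phospholipase C beta and so drive polarity, movement and calcium release. Chemokine receptors read secreted chemokines, anaphylatoxin receptors read fragments of complement, and formyl peptide receptors read peptides from bacteria and mitochondria. Ccrl2 is the exception, since it binds the attractant chemerin without signalling in the usual way. In monocytes and macrophages Ccr2 is known for exit from the bone marrow, Cxcr4 for retention there, and Cx3cr1 for patrolling and tissue-resident cells.

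Ratios are differences of log2(FPKM + 1), which understate differences of low genes, and calling an entry higher or lower took a difference of 1 or more, which is 2-fold on that scale. Folds are plain ratios of FPKM. At 20 U/ml against untreated cells, 5 of the 9 receptor entries were higher (Ccr1, Ccr2, Ccrl2, Fpr1 and the Fpr2 entry) and 2 were lower (Cxcr4 and Cx3cr1). C3ar1 and C5ar1 passed in neither direction. Over all 11580 entries, 6.51% were higher and 2.94% were lower by the same rule, 9.45% together. The median log2 ratio was 1.32 over the receptors and 0.01 over all entries. In bulk RNA, a different number of cells that carry a transcript and a different amount per cell cannot be told apart.

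**Figure D1:**
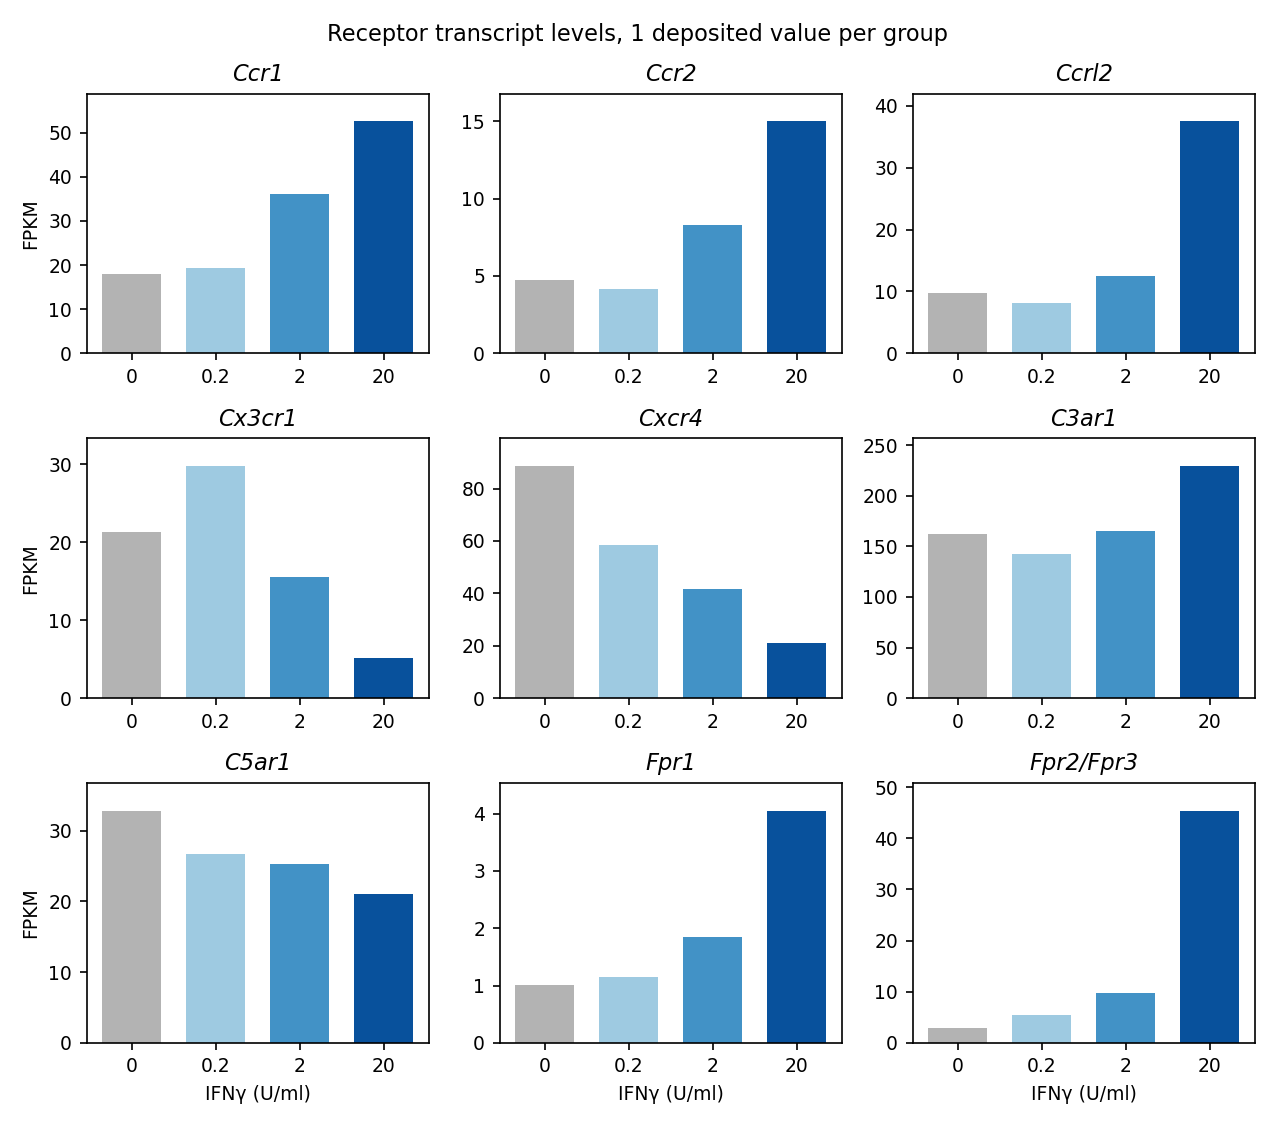
FPKM of the 9 receptor entries (vertical axes, each from 0) in untreated macrophages and at 0.2, 2 and 20 U/ml IFNγ (horizontal axes); each bar is the 1 deposited value of a group, with no error available. Cxcr4 ran from 88.6 down to 21.2 FPKM, while the Fpr2/Fpr3 entry ran from 2.86 up to 45.4 FPKM.

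Fpr2, a receptor for formyl peptides and for lipid and protein mediators such as serum amyloid A, gave the largest ratio of the 9. Its entry, with the neighbouring Fpr3, another formyl peptide receptor gene, was at 2.86 FPKM without IFNγ and at 5.38, 9.68 and 45.4 FPKM at the low, middle and high dose. The level was thus higher at each successive dose, with the widest step from 2 to 20 U/ml, where the fold was 4.69. Against untreated cells the log2 ratio was 0.73, 1.47 and 3.59 at the 3 doses, and the fold at 20 U/ml was 15.9. At 2 U/ml this was the 1 receptor called higher. Over all entries, 2.50% were higher and 0.760% lower in that comparison, 3.26% together. By log2 ratio at 20 U/ml the entry was number 88 of 11580 from the top.

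Fpr1, the high-affinity formyl peptide receptor of phagocytes, was higher at each successive dose too, at the lowest level of the 9. It was at 1.02 FPKM without IFNγ and at 1.16, 1.85 and 4.05 FPKM at the low, middle and high dose, below every other receptor of the set in each group. The fold at 20 U/ml was 3.99. The log2 ratio of 1.32 was 1.89 with a pseudocount of 0.1 in place of 1, the widest shift among the receptors. At 0.2 U/ml the log2 ratio of 0.10 was 0.04 under upper-quartile scaling and 0.01 under quantile normalization, so the first step was close to none.

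Both genes lie on chromosome 17 and point away from each other (GENCODE M21 on GRCm38). Fpr1 occupies positions 17876471 to 17883940 on the minus strand and Fpr2 positions 17887824 to 17893952 on the plus strand, with 3884 bp between their starts. Fpr3, annotated from 17887852 to 17971677, shares 48 exonic bases with Fpr2, and the authors' table merges them. The other members of the family in mouse, Fpr-rs3, Fpr-rs4, Fpr-rs6 and Fpr-rs7, were listed at 0 in all 4 groups. Close copies of this kind can take or lose reads in counting, so the split between them is uncertain.

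The 250 bases upstream of a RefSeq start (GRCm38.p6) were searched on both strands for GAS, the letters TTCNNNGAA, for ISRE, the letters GAAA given again after any 2 bases, and for a shortened ISRE, GAAANNGAA, which every full ISRE contains. All 9 receptors had an entry, with 11 windows because Ccrl2 has 3. GAS was found in 1 receptor, Fpr2, with its first base 77 bases before the start, against 7.02% of all 32851 windows of the same length. ISRE was found in 0 of the 9, against 2.98% of all windows. The shortened ISRE was found in Ccr2, 86 bases before the RefSeq start, and in C5ar1, 66 bases before it, against 7.13% of windows. GENCODE M21 starts these genes farther upstream, at 124101950 (Ccr2) and 16259540 (C5ar1). Most of both windows, with both matches, thus lies inside the genes as GENCODE annotates them. A match describes letters only and shows no binding. The windows of the divergent formyl peptide receptor pair and of the receptors with a shortened ISRE are printed 5′ to 3′ along the gene, with matches in capitals (GAS in Fpr2, the shortened ISRE in Ccr2 and C5ar1) and none in Fpr1.
Fpr2 upstream (chr17:17887574-17887823, plus strand): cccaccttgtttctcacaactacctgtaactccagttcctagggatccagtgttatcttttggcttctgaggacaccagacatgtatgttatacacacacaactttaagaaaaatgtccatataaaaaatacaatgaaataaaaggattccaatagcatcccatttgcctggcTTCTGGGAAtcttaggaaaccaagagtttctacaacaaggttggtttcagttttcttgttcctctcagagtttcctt
Fpr1 upstream (chr17:17883940-17884189, minus strand): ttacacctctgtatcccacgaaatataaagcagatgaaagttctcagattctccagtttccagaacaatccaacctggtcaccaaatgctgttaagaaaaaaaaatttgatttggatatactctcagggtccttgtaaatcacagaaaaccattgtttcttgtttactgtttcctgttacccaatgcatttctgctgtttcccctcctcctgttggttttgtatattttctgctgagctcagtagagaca
Ccr2 upstream (chr9:124101933-124102182, plus strand): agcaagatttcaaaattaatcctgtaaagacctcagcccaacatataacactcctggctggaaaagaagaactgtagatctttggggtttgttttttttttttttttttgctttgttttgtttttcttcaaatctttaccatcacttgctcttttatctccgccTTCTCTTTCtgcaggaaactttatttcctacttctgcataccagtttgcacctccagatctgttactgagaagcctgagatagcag
C5ar1 upstream (chr7:16259339-16259588, minus strand): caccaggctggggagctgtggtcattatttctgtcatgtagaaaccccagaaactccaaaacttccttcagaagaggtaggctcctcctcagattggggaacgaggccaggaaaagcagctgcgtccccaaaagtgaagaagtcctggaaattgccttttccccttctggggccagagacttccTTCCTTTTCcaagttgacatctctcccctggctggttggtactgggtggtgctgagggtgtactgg

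Ccr1, Ccrl2, Fpr1, Cx3cr1, Cxcr4 and C3ar1 held none of the 3 motifs in these windows. The window of Cx3cr1 and some of those of Ccrl2 also lay within the gene as annotated by GENCODE.

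Ccr1, a receptor for Ccl3, Ccl5 and related CC chemokines, was at 18.0 FPKM without IFNγ and at 19.3, 36.0 and 52.6 FPKM at the low, middle and high dose. The value at 0.2 U/ml lay close to the untreated one, and the levels at 2 and 20 U/ml were above both. The log2 ratios were 0.09, 0.96 and 1.496, and the fold at 20 U/ml was 2.92. At 2 U/ml the plain fold was 2.00. The ratio missed the size rule with the pseudocount of 1, with one of 0.1 (0.997) and under upper-quartile scaling (0.90). At 0.2 U/ml the sign of the ratio turned under upper-quartile scaling (-0.02), so no direction is given there. Of the log2 change seen at 20 U/ml, 64.4% was present at 2 U/ml. The middle of the 754 entries called higher at 20 U/ml had 46.1% (25th to 75th percentile 32.6% to 59.7%).

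Ccr2, the receptor for the monocyte attractants Ccl2, Ccl7 and Ccl12, was at 4.74 FPKM without IFNγ and at 4.19, 8.29 and 15.0 FPKM at the low, middle and high dose. The lowest dose was slightly under the untreated value and the higher doses above it. The log2 ratios were -0.15, 0.70 and 1.48, with a fold of 3.16 at 20 U/ml. Ccr2 marks inflammatory monocytes as well, and other genes from a list of monocyte markers differed along with it. Of 7 monocyte marker entries, 4 passed the filter, 3 of these were higher at 20 U/ml (Plac8, Ly6c1 and Ly6c2) and 1 was lower (F13a1). Ly6c2, a surface antigen of inflammatory monocytes, was at 0.229, 0.391, 1.00 and 8.35 FPKM in dose order, and the summed level of the list was between 5.90 and 8.81 FPKM in the 3 lower groups and 46.0 at 20 U/ml. Chil3 was at most 0.16 FPKM. The part of these genes in the Ccr2 result was not tested.

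Ccrl2, which presents chemerin to neighbouring cells, was at 9.83 FPKM without IFNγ and at 8.18, 12.5 and 37.5 FPKM at the low, middle and high dose. It differed chiefly at the last step, with log2 ratios of -0.24, 0.32 and 1.83 against untreated cells and 1.51 from 2 to 20 U/ml. Of its log2 change at 20 U/ml, 17.4% was present at 2 U/ml, below the 25th percentile of the entries called higher (32.6%). Chemerin itself (Rarres2) was between 4.46 and 5.13 FPKM in all groups. Cmklr1, the signalling receptor for chemerin, chosen after its values were seen, fell under the filter with 0.332 FPKM untreated and 1.77 at the high dose.

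Cxcr4, the receptor for Cxcl12, showed the largest difference downward. It was at 88.6 FPKM without IFNγ and at 58.6, 41.5 and 21.2 FPKM at the low, middle and high dose, lower at each successive dose. Its log2 ratios were -0.59, -1.08 and -2.01, and the level at 20 U/ml was lower by a fold of 4.18. Cxcr4 was the 1 receptor called lower at 2 U/ml, and at 20 U/ml it was number 26 of 11580 from the bottom. At 0.2 U/ml, where 0 of the 9 receptors passed the size rule and 5.23% of all entries were higher and 0.328% lower (5.56% together), Cxcr4 was number 159 from the bottom. Of its log2 change at 20 U/ml, 29.2% was present at 0.2 U/ml and 53.5% at 2 U/ml, beside medians of 9.19% and 40.8% over the 340 entries called lower. From 2 to 20 U/ml its ratio was -0.94, and it passed the rule there under upper-quartile scaling (-1.01) and quantile normalization (-1.03).

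Cx3cr1, the receptor for the membrane-bound chemokine Cx3cl1, took another course. It was at 21.3 FPKM without IFNγ and at 29.8, 15.5 and 5.16 FPKM at the low, middle and high dose. The lowest dose lay above the untreated value and the highest far below it, so the order of the groups was not that of the doses. The log2 ratios were 0.46, -0.43 and -1.85, with a fold of 4.12 lower at 20 U/ml. Among all entries, too, more were called higher than lower at 0.2 U/ml (606 and 38), and the part of that shift in the Cx3cr1 value was not tested. From 2 to 20 U/ml the log2 ratio was -1.42, number 32 of 11580 from the bottom.

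At 20 U/ml the anaphylatoxin receptors differed least from untreated cells among the 9. C3ar1, the receptor for the complement fragment C3a, was at 162 FPKM without IFNγ and at 143, 165 and 229 FPKM at the low, middle and high dose, the most abundant of the 9 in every group. Its fold at 20 U/ml was 1.42 (log2 ratio 0.50), under the size rule. At 2 U/ml the log2 ratio of 0.03 turned to -0.04 under upper-quartile scaling and to -0.01 under quantile normalization, so no direction is given for it.

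C5ar1, the receptor for the strong neutrophil and macrophage attractant C5a, was at 32.8 FPKM without IFNγ and at 26.7, 25.3 and 21.0 FPKM at the low, middle and high dose. The values ran downward with dose and the log2 ratio at 20 U/ml, -0.62, did not pass the rule. C5ar2, the second C5a receptor, lies 2588 bp from C5ar1 on chromosome 7, and its merged entry was at most 0.23 FPKM.

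**Figure D2:**
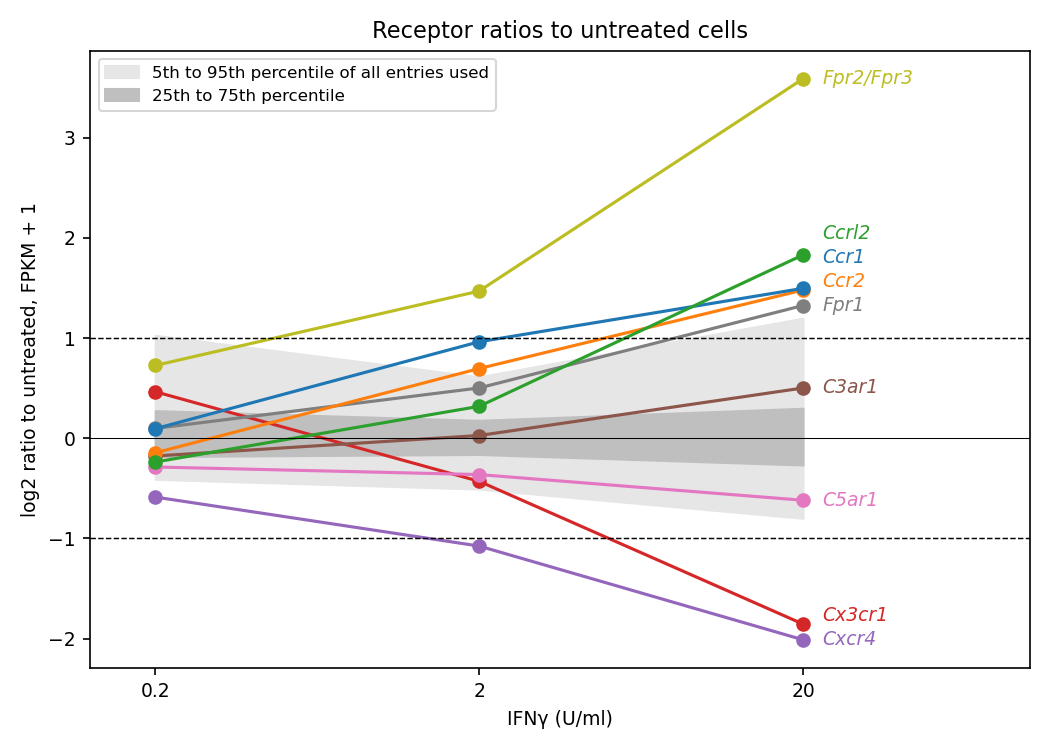
log2 ratio of each receptor entry to untreated cells (vertical axis, FPKM + 1) at 0.2, 2 and 20 U/ml IFNγ (horizontal axis), with grey bands for the spread of all 11580 entries and dashed lines at the size rule. At 20 U/ml the 5 receptors called higher lay above the 95th percentile of all entries (1.20) and Cxcr4 and Cx3cr1 below the 5th (-0.80).

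Set side by side, the 9 receptors parted into those above and those below untreated cells as the dose increased. Over all 4 groups, 3 receptors were higher at each successive dose (Ccr1, Fpr1 and the Fpr2 entry) and 2 were lower at each (Cxcr4 and C5ar1), against 9.28% and 6.54% of all entries. The first step of Ccr1 turned under upper-quartile scaling and that of Fpr1 was close to none under quantile normalization, as given above. Without the 0.2 U/ml group, an alternative chosen after seeing the data, 6 ran upward and 3 downward through untreated, 2 and 20 U/ml, against 30.3% and 25.7% of entries, although C3ar1 is counted among the 6 by a difference at 2 U/ml that turns with the scaling. From 0.2 to 2 U/ml, 0 of 9 receptors passed the size rule, beside 1.51% of all entries higher and 6.26% lower, 7.77% together. From 2 to 20 U/ml, Ccrl2 and the Fpr2 entry were higher and Cx3cr1 lower, beside 2.90% higher and 1.11% lower, 4.01% together.

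The order of the levels, which FPKM allows because it is per length, was rearranged accordingly. In untreated cells it ran C3ar1, Cxcr4, C5ar1, Cx3cr1, Ccr1, Ccrl2, Ccr2, Fpr2 entry, Fpr1. At 20 U/ml it ran C3ar1, Ccr1, Fpr2 entry, Ccrl2, Cxcr4, C5ar1, Ccr2, Cx3cr1, Fpr1. Which neighbours in these orders differ beyond replicate spread cannot be said from 1 value per group, and Cxcr4 and C5ar1 at 20 U/ml were only 21.2 and 21.0 FPKM. Of the summed FPKM of the 9 entries, Cxcr4 made up 26.0% without IFNγ and 4.92% at the high dose, the Fpr2 entry 0.839% and 10.5%, and Ccr1 5.28% and 12.2%. C3ar1 made up 47.4% and 53.2%. The sum itself was 341 FPKM without IFNγ and 296, 315 and 431 FPKM at the low, middle and high dose.

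**Figure D3:**
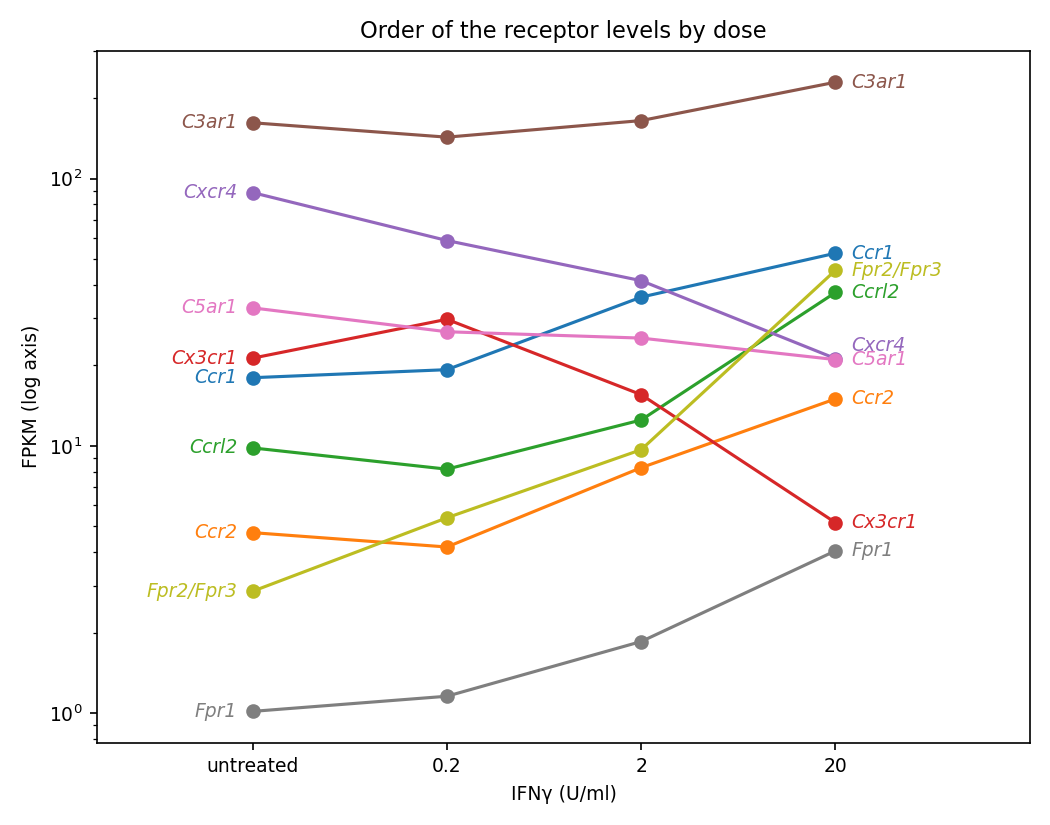
FPKM on a log axis (vertical) for the 9 receptor entries in the 4 groups (horizontal), each line 1 entry and each point 1 deposited value. Cxcr4 was in second place with 88.6 FPKM in untreated cells and in the fifth with 21.2 FPKM at 20 U/ml, and the Fpr2/Fpr3 entry went from the eighth place to the third.

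Ccr1 and Ccr2 belong to a cluster of CC chemokine receptor genes on chromosome 9, where their starts are 133 kb apart. Ccr1 lies at 123962124 to 123968692 on the minus strand and Ccr2 at 124101950 to 124113557 on the plus strand. The chemokine receptor genes between them, Ccr1l1 and the eosinophil receptor Ccr3, were at most 0.16 and 0.61 FPKM, and Xcr1, on the other side of Ccr1, was at most 0.85. Ccr1 and Ccr2, called higher at 20 U/ml, thus have genes under 1 FPKM between them. Cx3cr1 lies 3.899 Mb and Ccrl2 12.9 Mb from Ccr1 on the same chromosome, at 119901616 to 120069879 and at 111054486 to 111057519, both on the minus strand. Off chromosome 9, Cxcr4 lies on chromosome 1 (128588199 to 128592293), C3ar1 on chromosome 6 (122847138 to 122856161) and C5ar1 on chromosome 7 (16246743 to 16259540), all on the minus strand.

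Of 18 further chemokine receptor entries considered, 17 were under 1 FPKM in all 4 groups and 1, Cxcr3, passed the filter. Cxcr3, the receptor for Cxcl9 and Cxcl10, was at 3.16 FPKM untreated and 2.12 at the high dose, under the size rule. The T cell and dendritic cell receptor Ccr7 and the neutrophil receptor Cxcr2 were at most 0.04 and 0.58 FPKM.

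Receptors for lipid, nucleotide and other attractants went both ways. Of 26 entries 11 passed the filter. At the high dose 2 of them were higher and 2 lower, and their median ratio was 0.06 on the log2 scale. Gpr84, a receptor for medium-chain fatty acids, was at 4.19, 4.57, 8.19 and 29.0 FPKM in dose order, and P2ry14, a receptor for UDP-sugars, at 6.71, 6.06, 10.2 and 32.9. S1pr1, a sphingosine-1-phosphate receptor that guides exit from tissue, was at 13.7, 9.56, 7.38 and 2.60 FPKM, lower at each dose as Cxcr4 was. Gpr183, a receptor for oxysterols, was at 11.8 FPKM untreated and 4.31 at the high dose. P2ry6, a UDP receptor and the most abundant of the list in untreated cells, was at 98.1 and 130 FPKM and did not pass.

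Ligands of the 9 receptors were measured in the same cells. Of 21 entries 14 passed the filter, and at the high dose 7 of these were higher and 3 lower. Their median ratio was 1.23 on the log2 scale. Ligands of Ccr2 were among those called higher. Ccl12 was at 11.2, 19.5, 56.6 and 404 FPKM in dose order and Ccl7 at 35.4, 49.4, 75.7 and 220. Ccl2, named after its values were seen, was at 117 FPKM untreated and 458 at the high dose. Saa3, of the serum amyloid A family whose members act on Fpr2, was at 9.51, 14.4, 21.0 and 130 FPKM, while Anxa1, a resolving ligand of formyl peptide receptors and the most abundant of the list in untreated cells, was at 487, 355, 341 and 222. Among ligands of Ccr1, Ccl5 had a log2 ratio of 5.38 and Ccl3 one of -1.95, the latter named after its values were seen, as was Ccl9 (-1.36). Ccl8 (5.47) and C3 (4.37), the precursor of C3a, were also called higher. Of the ligands of Cxcr4, Cxcl12 was at most 0.08 FPKM, while Mif, a cytokine that also binds this receptor, was at 482, 627, 484 and 682 FPKM in dose order. Cx3cl1, the ligand of Cx3cr1, was at most 0.84 FPKM.

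Most of the shared signalling machinery did not pass the size rule. Of 11 G protein entries 10 passed the filter, 2 were higher at 20 U/ml and 0 lower, and the median log2 ratio was -0.01. Gna15, an alpha subunit that couples promiscuously to chemoattractant receptors, was at 17.6, 21.3, 30.6 and 44.8 FPKM in dose order, and the beta subunit gene Gnb4 had a log2 ratio of 1.83. Gnai2, the main Gi alpha subunit of leukocytes, was at 502 FPKM untreated and 474 at the high dose. The beta subunit gene Gnb2, whose merged entry was the most abundant of the list in untreated cells, was at 823 and 835 FPKM.

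Among 16 effector entries considered 15 passed the filter, 2 were higher and 0 lower, and the median ratio was 0.25. They were the Src-family kinase Lyn (49.4 FPKM untreated, 130 at the high dose) and the Rac and Cdc42 effector Pak1 (log2 ratio 1.20). Cdc42, the most abundant in untreated cells, was at 468 and 460 FPKM. Pik3cg, the gene of phosphoinositide 3-kinase gamma, had a log2 ratio of -0.91, short of the rule, though its plain fold was 2.04 lower. The phospholipase C beta genes Plcb2 and Plcb3 had ratios of 0.68 and 0.50, while Plcb1 fell under the filter. These genes were chosen after their values were seen. Of 15 entries for desensitization and regulators of G protein signalling (RGS), 13 passed the filter, 1 was higher and 1 lower, and the median ratio was -0.06. Rgs14 was at 11.7 FPKM untreated and 25.1 at the high dose, and Rgs10 at 329 and 161. The entry of the arrestin gene Arrb2, the most abundant in untreated cells, was at 415 and 408 FPKM.

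**Figure D4:**
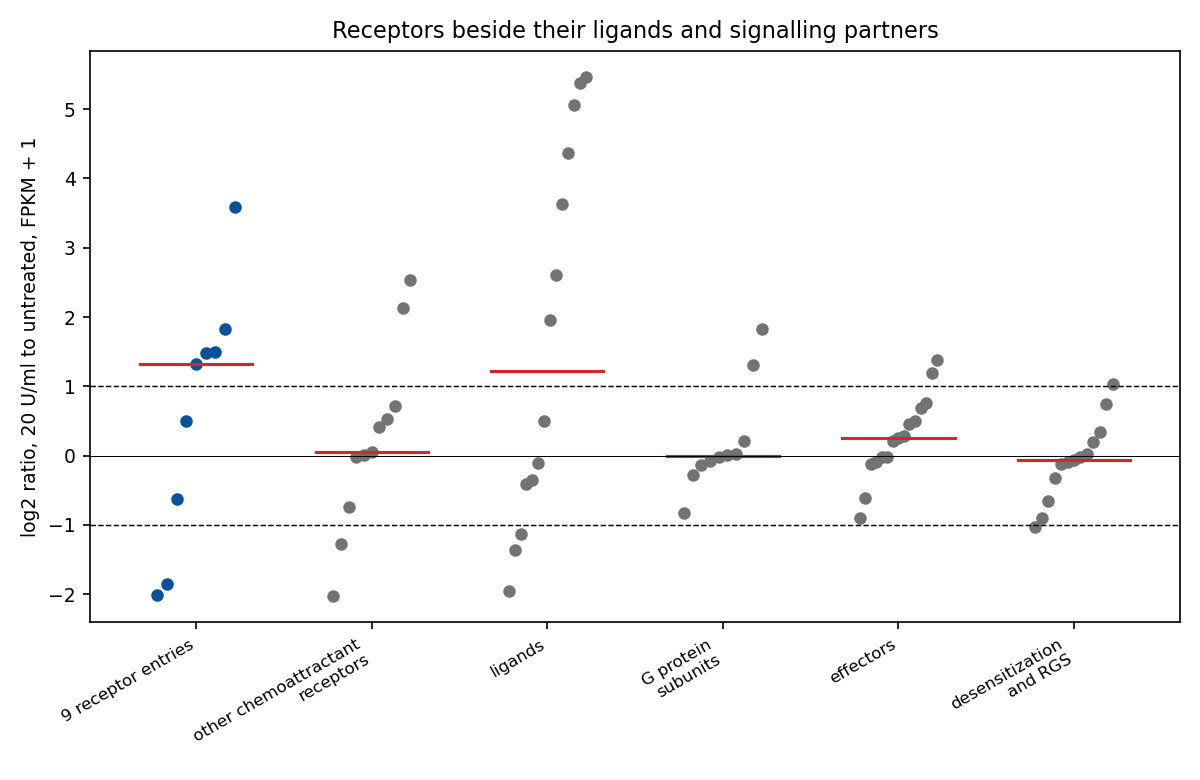
log2 ratio of 20 U/ml IFNγ to untreated cells (vertical axis, FPKM + 1) for the 9 receptor entries in blue and, in grey, for the entries of 5 related gene lists that passed the filter; each point is 1 entry, red bars are medians and dashed lines the size rule. The medians were 1.32 for the receptors, 1.23 for the ligands and between -0.06 and 0.25 for G proteins, effectors and regulators.

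The genes whose ratios at the 3 doses lay closest to those of each receptor were taken from 7085 single-gene protein-coding entries with a mean of at least 5 FPKM, by Euclidean distance of the 3 log2 ratios. The 3 ratios share the 1 untreated value, and likeness over so few points says little. Closest to Cxcr4 were Atp6v0d2, a proton pump subunit (distance 0.08), Penk (0.19) and Cd28 (0.23). Closest to the Fpr2 entry were Cd86, a co-stimulatory ligand (0.21), Usp18, an inhibitor of interferon signalling (0.21), and Slco3a1 (0.40). For Ccr1 they were Slc23a2 (0.10), Cd72 (0.11) and Sppl2a (0.13), for Ccr2 Epsti1 (0.10), Ralgds (0.10) and Cd300e (0.13), and for Fpr1 Slc16a3 (0.04), Rgmb (0.08) and Degs2 (0.08). The first neighbours of Ccrl2 and Cx3cr1 were farther away than those of the other called receptors, with Acsl1 (0.29) and Galnt6 (0.48), then Psat1 (0.32) and Oas2 (0.33) for Ccrl2 and Stab1 (0.48) and Mki67 (0.49) for Cx3cr1. Within the receptors the closest pair was Ccr2 and Fpr1 (0.35), followed by Ccr1 and Ccr2 (0.36).

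Checks on the whole series bear on these values as follows. All 6 genes of a list of IFNγ response controls, among them Irf1, were higher at 2 and at 20 U/ml. At 0.2 U/ml 2 of the 6, Irf1 and Gbp2, were called higher, beside 5.23% of all entries. The 9 macrophage marker entries summed to between 2483 and 3200 FPKM, and Csf1r, the CSF-1 receptor, was between 340 and 418. Markers of T and NK cells (10 of 10 entries), of mast cells and basophils (8 of 8) and most of those of B cells (4 of 6) were under 1 FPKM in all groups. Of 12 neutrophil marker entries, which bear on Fpr1, 6 were under 1 FPKM throughout, and their sum was between 41.1 and 57.9 FPKM. Ly6g was at most 0.12 FPKM and Retnlg was listed at 0, while S100a8 was at 13.3 FPKM untreated and 30.4 at the high dose and Mmp8 was at 15.9 and 3.69. The dendritic cell list summed to 222 FPKM untreated and 1315 at the high dose, nearly all of it Bst2, which interferons induce (1267 FPKM), and its defining genes Flt3 and Zbtb46 were at most 0.03 and 0.31. Clec9a, a marker of cross-presenting dendritic cells whose entry is merged with Clec1b, was at 1.27, 1.40, 7.16 and 47.1 FPKM in dose order, and Xcr1, of the same list, at 0.14 untreated and 0.85 at the high dose. The osteoclast list summed to between 37.2 and 50.1 FPKM and the stromal and endothelial list to between 42.1 and 135, most of it Vwf. At 0.2 U/ml against untreated cells, 1 of 3 stromal and endothelial entries past the filter was called higher, beside 5.23% of all entries. This was Pecam1, at 0.69, 3.41, 0.72 and 0.94 FPKM in dose order. Of the dendritic and B cell entries past the filter, 0 were called there. Under the filter, Siglech of the dendritic cell list was at 0.18, 1.97, 0.26 and 0.10 FPKM, and Ms4a1 of the B cell list at 0.24, 1.09, 0.30 and 0.23. The part of these cells in the receptor results was not tested.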

How the data were processed

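RNA sequencing libraries of mouse macrophages were processed with TopHat2 2.1.1, Cufflinks 2.1.1 and Cuffdiff 2.1.1 on mm10, per the submitters' processing notes. The sources used here do not give the role of each tool, nor how the libraries of a group were combined. The authors deposited expression as FPKM, per the file headers, giving each group 1 value; the untreated column names no unit and was read as FPKM from its range. The authors' deposited comparison holds, per the file headers, log2 fold changes with p-values and q-values. No dose is named in it, and 2 of its columns, with levels in each condition, were not used.

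From these values, differences of log2(FPKM + 1) were computed with pandas 2.3.3 and numpy 2.4.6 over 11580 entries with a mean of at least 1 FPKM and above 0 in all 4 groups, since an exact 0 can be a failed estimate. A ratio of at least 1 in size was called. No test was possible with 1 value per group. The calculation was tested on simulated data with known changes. Named genes were the 9 members, chemokine receptor neighbours, up to 6 entries of each list past the size rule and its most abundant entry, and the 3 entries nearest each called member. Marker and control genes come from their lists, and other genes named were chosen after their values were seen. Members and lists were chosen with earlier results of these data known. A few genes were taken out of the lists and are not reported here, so list counts leave them out. Positions came from GENCODE M21 (GRCm38, the assembly behind mm10), and upstream sequences from RefSeq (GRCm38.p6).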

Additional observations from a re-analysis of the deposited data

Results flagged for a closer look

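The authors' deposited table of a comparison of treated with untreated cells names no dose and lies outside the comparisons above; 8 of the 9 receptor entries were significant in it. Of 12854 entries tested in the authors' deposited table, 68.9% were significant. By the log2 fold change of the authors' deposited table, Cxcr4 was at 4.33, Fpr1 at 2.95, Ccrl2 at 2.48, Ccr1 at 2.40, C5ar1 at 0.47 and C3ar1 at 0.32. In the authors' deposited table Ccr2 was at -1.84 and Cx3cr1 at -4.91. The q-value in the authors' deposited table was 9.95e-05 for 7 of these 8 receptors, the smallest in that table, and 0.000472 for C3ar1. The Fpr2 and Fpr3 entry was at -0.37 with a q-value of 0.292 in the authors' deposited table. Set beside the expression values at 20 U/ml, 5 receptors had the same sign of difference in the authors' deposited table and 4 (Cxcr4, Ccr2, C5ar1 and the Fpr2 entry) the opposite sign. Of these 4, Cxcr4, C5ar1 and the Fpr2 entry had the opposite sign at 0.2 and 2 U/ml too. Ccr2 had it at 2 U/ml but not at 0.2 U/ml. At 0.2 U/ml the sign was also opposite for Ccrl2, Cx3cr1 and C3ar1, which had the same sign at 20 U/ml. The signs were not counted over all entries, so it cannot be said whether the split at any dose is particular to the receptors. Which samples that comparison used was not analysed here.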

How the results depend on the processing

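No paired analysis was possible because the table gives 1 value per group, and for the same reason no replicate could be left out. Of 305 receptor ratios under the 7 other settings, 290 kept their side of the size rule, 15 passed it newly, and 0 lost it or reversed. Much of this count was fixed in advance. Only the other pseudocount, upper-quartile scaling and quantile normalization change a ratio. Under the other settings the ratio is the main value again, and a looser size rule cannot lose a call. Each of the 7 receptors called at 20 U/ml was called there under every setting that kept its entry; a mean of at least 5 FPKM leaves out Fpr1, and leaving out merged entries removes Fpr2. With a size rule of 1.5-fold, 2 receptors passed at 0.2 U/ml, 4 at 2 U/ml, 4 from 0.2 to 2 U/ml and 6 from 2 to 20 U/ml, against 0, 2, 0 and 3. Over all entries 13%, 8.77%, 19% and 12.6% passed that looser rule in the same comparisons. At 20 U/ml against untreated cells 8 receptors passed it in place of 7, with C5ar1 newly lower, beside 22.2% of all entries. Without merged entries 1 receptor passed at 2 U/ml, beside 3.14% of all entries. Without the 0.2 U/ml group, 6 receptors ran upward with dose in place of 3, beside 30.3% of all entries in place of 9.28%. The receptors added were Ccr2, Ccrl2 and C3ar1, which lay under the untreated value at 0.2 U/ml. Under upper-quartile scaling the median over all entries moved by -0.13 at 20 U/ml and by -0.10 at 0.2 U/ml, and quantile normalization the latter by -0.10; at 20 U/ml, 57.1% of called entries were then higher under upper-quartile scaling, 60.5% under quantile normalization and 56.8% at 1.5-fold, against 68.9%. Fpr1 is the receptor most limited by a low level.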
